A study of Mus musculus with 12 samples.

Results

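The Id genes and 7 further genes of BMP and TGF-beta signalling were followed in bone marrow-derived macrophages (BMDMs) with and without cGAS, the sensor of DNA in the cytosol. The 10 genes were Id1, Id2, Id3, Smad1, Smad3, Smad5, Smad6, Tgfb1, Bmpr2 and Tgfbr2, out of 38739 gene symbols in the table. They were taken by symbol, and the question put to them was whether a response like that to BMP marks untreated knockout cells. Their levels in untreated cells were known when they were chosen, so the differences between genotypes in untreated cells are given below as a description, with standard errors and no test.

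The study has 12 RNA-seq libraries, 3 in each of 4 groups. WT UT and WT LPS are BMDMs of wild-type C57BL/6J mice, left in medium (UT) or stimulated with lipopolysaccharide (LPS) of E. coli 026:B6. The cGAS-/- UT and cGAS-/- LPS libraries are the same cells from cGAS knockout mice on that background. Per the methods, the WT mice were purchased and the knockout mice were provided by another laboratory. Genotype and source of the mice therefore cannot be told apart for any gene. The labels give 100 ng/mL for the LPS groups and 1 h for all groups, whereas the methods give a higher dose and 24 h, so the time of exposure is not settled. The labels also name neutrophils as the source of the RNA in the extraction step, knockout mice in the culture step of all 12 samples and another sequencer than the methods do. The cell type and genotype used here are those of the sample titles and sample descriptors. The mice were males of 8 weeks, and the gene is deleted in every cell of the mouse and not in macrophages alone. No source names separate mice for the 3 samples of a group, and a figure legend speaks of technical replicates. The standard errors and p-values therefore measure the spread between these samples, which may be technical.

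BMPs and TGF-betas are secreted ligands that bring together a type II and a type I receptor on the cell surface. The activated type I receptor phosphorylates Smad proteins, Smad1 and Smad5 after BMP and Smad3 after TGF-beta or activin, and these enter the nucleus with a common partner. The Id genes are among the most rapid and general targets of the BMP branch. They encode small proteins without a DNA-binding region that hold E proteins away from DNA, and are best known for keeping precursor cells from differentiating. Smad6 is a target of the same branch and inhibits it. Id2 is also induced by many other signals in blood cells, and Tgfb1 and its receptors are abundant in macrophages.

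Cgas, the targeted gene, had 1.19 to 3.25 TPM in WT and 0.0703 to 0.291 TPM in cGAS-/- samples, without overlap. TPM is a share of all transcripts in a sample, set per transcript length, and the values here were taken as the mean over the transcripts listed for a symbol. A gene with more listed transcripts thus gets a lower value, and levels are compared between samples and not between genes. WT LPS replicate 3 stood apart, with values that summed to 709802 against 447189 to 503156 in the other 11 samples and with 18.5% of the sum in protein-coding genes against 39.7% to 54.4%. Results that use the WT LPS group are given without it as well where that changed a call, turned the direction or moved the value by over 1.5 times. Of 10 macrophage markers 7 were in the table, and none was under 1 TPM throughout a group, with Cd68 between 153 and 1046 TPM and Lyz2 between 15701 and 33426 TPM over the 12 samples. The read depth is unknown, so no counting error is given.

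The promoters of 9 of the 10 genes, all but Id1, were taken from RefSeq (GRCm38.p6) and searched over the 250 bases before the start for 2 short motifs of Smad binding on either strand. GGCGCC is a site favoured by Smad1 and Smad5, and CAGAC is a form of the site bound by Smad3 and the common Smad. The 4 matches of Id2, Id3 and Bmpr2 are shown as examples of how the motifs stand before these genes. They are not all that were found, and matches were not limited to genes that were higher in untreated knockout cells. The motif is in capitals, with up to 12 bases on each side in lower case, 5′ to 3′ on the gene's strand:
Id2, GGCGCC, 231 bases before the start, chr12:25146305-25146334 (GRCm39, minus strand): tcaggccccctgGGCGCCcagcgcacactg
Id3, CAGAC, 167 bases before the start, chr4:135870954-135870982 (plus strand): tgtcctcggcgtCAGACcagcctaaggaa
Id3, CAGAC read on the other strand, 68 bases before the start, chr4:135871053-135871081 (plus strand): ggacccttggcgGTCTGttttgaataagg
Bmpr2, GGCGCC, 105 bases before the start, chr1:59803321-59803350 (plus strand): ctccggcggccgGGCGCCgctgcctgcccc

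Each window was placed on GRCm39 by an exact match, and longer transcripts of the GENCODE annotation begin upstream of it, so all 4 lie in an annotated 5′ untranslated exon. Neither motif was found in the windows of Smad1, Smad3, Smad5, Smad6 or Tgfb1. GGCGCC was present in 9.59% of 32851 promoters of the table and CAGAC in 42.2%, so a match to the second is common. The windows of the 9 genes held 58.4% to 75.2% G and C, against a median of 52.4% over all promoters. These matches are letters in a window and were not tested for binding.

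Among the Id genes, Id1 and Id3 were close to 0 in WT UT cells and above 11 TPM in every cGAS-/- UT sample. Id1 (chromosome 2, 152566218 to 152579544 of GRCm39) was at 0.165, 0.338 and 0.432 TPM in WT UT cells and at 14.2, 12.01 and 11.7 TPM in cGAS-/- UT cells. The mean level was 40.5 times as high in the knockout. On the log2(TPM + 1) scale, which understates the change of genes with low values, the difference was 3.38 (standard error 0.32). In LPS-treated cells Id1 was at 1.58, 0.438 and 0 TPM in WT and at 0.233, 1.11 and 0.483 TPM in cGAS-/- cells. The cGAS-/- UT samples were thus the only ones above 2 TPM, and the other 3 groups overlapped with each other.

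Id3 (chromosome 4, 135870808 to 135873066) had the largest log2 difference of the 10 genes. It was at 1.29, 0.885 and 1.74 TPM in WT UT cells and at 44.8, 47.1 and 46.4 TPM in cGAS-/- UT cells, a mean level 35.3 times as high and a log2 difference of 4.37 (standard error 0.27). After LPS it was at 0.598, 0.93 and 2.32 TPM in WT cells and at 2.64, 2.21 and 2.03 TPM in cGAS-/- cells. Every cGAS-/- LPS sample was above every WT UT sample and below every cGAS-/- UT sample.

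Id2 (chromosome 12, 25143798 to 25147282) was well expressed in all groups and highest in cGAS-/- UT cells. It was at 28.4, 30.8 and 27.2 TPM in WT UT cells and at 118, 121 and 114 TPM in cGAS-/- UT cells, a mean level 4.08 times as high and a log2 difference of 1.99 (standard error 0.47). WT LPS cells had 48.3, 57.1 and 11.6 TPM, the last being the sample that stood apart, and cGAS-/- LPS cells had 21.3, 27.1 and 25.7 TPM. The 3 cGAS-/- LPS samples were below all WT UT samples, by a narrow margin. Id4, the remaining Id gene, did not exceed 0.182 TPM in any sample.

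Smad6 (chromosome 9, 63860341 to 63929793), the inhibitor that BMP signals induce, was at 0.0585, 0.149 and 0.0255 TPM in WT UT cells and at 2.3, 2.71 and 2.55 TPM in cGAS-/- UT cells. The log2 difference was 1.71 (standard error 0.2), and the mean level was 32.4 times as high over a WT level close to 0. Smad6 was at 1.74, 1.06 and 2.29 TPM in WT LPS cells, wholly above WT UT cells, and at 1.67, 1.34 and 1.03 TPM in cGAS-/- LPS cells. WT UT was therefore the single group with Smad6 near 0, and both LPS groups overlapped.

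**Figure D1:**
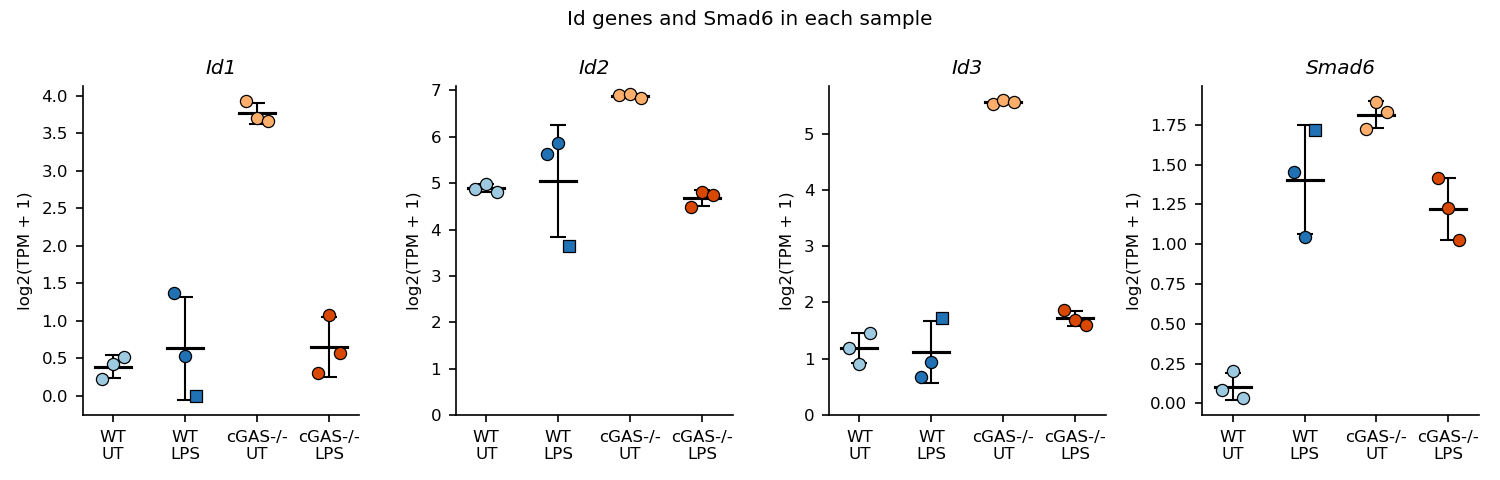
Levels of Id1, Id2, Id3 and Smad6 in each sample as log2(TPM + 1), by group, with 1 point a sample, the mean as a horizontal line and the SD (n = 3) as bars. The square is WT LPS replicate 3. The 3 cGAS-/- UT samples lie above all others for Id1, Id2 and Id3, and for Smad6 the 3 WT UT samples lie below all others.

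The Smads that carry the signal differed little between untreated genotypes. Smad1, a carrier of BMP signals (chromosome 8, 80065023 to 80126168), was at 3.85, 2.79 and 2.64 TPM in WT UT cells and at 3.46, 3.33 and 2.76 TPM in cGAS-/- UT cells. The samples overlapped, and the log2 difference was 0.04 with a 95% interval from -0.65 to 0.73. Smad5, the other BMP carrier (chromosome 13, 56850797 to 56890190), had mean levels of 0.943 ± 0.211 TPM (SD, n = 3) in WT UT and 1.19 ± 0.195 TPM in cGAS-/- UT cells, a difference of 0.18 with an interval from -0.26 to 0.61. Smad3, the carrier of TGF-beta and activin signals (chromosome 9, 63554049 to 63665476), had 1.84 ± 0.395 TPM in WT UT cells and 2.14 ± 1.08 TPM in cGAS-/- UT cells, a difference of 0.10 with an interval from -0.63 to 0.83. For all 3 carriers the intervals leave room for a modest difference either way.

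Of the receptors, Bmpr2 was somewhat higher and Tgfbr2 lower in untreated knockout cells. Bmpr2, a type II receptor for BMPs (chromosome 1, 59802544 to 59918173), was at 4.62, 4.57 and 3.69 TPM in WT UT cells and at 6.23, 6.26 and 6.62 TPM in cGAS-/- UT cells, a log2 difference of 0.48 (standard error 0.26) without overlap of the samples. Tgfbr2, the type II receptor for TGF-beta (chromosome 9, 115913361 to 116004800), had mean levels of 49.0 ± 0.835 TPM in WT UT cells and 37.6 ± 2.76 TPM in cGAS-/- UT cells, a log2 difference of -0.37 (standard error 0.42). Tgfb1, the TGF-beta ligand that macrophages make most (chromosome 7, 25386390 to 25404506), had 75.9 ± 4.49 TPM in WT UT cells and 61.2 ± 3.83 TPM in cGAS-/- UT cells, a difference of -0.31 (standard error 0.48). The samples did not overlap for either gene, but the standard error, taken from a fit over all 12 samples, was larger than the difference.

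In all, 5 of the 10 genes had every cGAS-/- UT sample above every WT UT sample, 2 had every sample below, and 3 overlapped. Over the 9855 genes with at least 1 TPM in at least 3 samples, 13.5% were wholly above and 19.4% wholly below. Since the genes were chosen on this comparison, nothing is read from the counts. The median log2 difference was 0.33 over the 10 genes and -0.03 over all 9855. All 10 passed the filter on low values, Id1 and Smad5 only through the cGAS-/- UT samples, and 8 would have passed without them. The direction was the same under every alternative setting tried for Id1, Id2, Id3, Smad6, Bmpr2, Tgfbr2 and Tgfb1, while it turned in 4 of 18 settings for Smad1 and in 2 of 18 for Smad3.

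**Figure D2:**
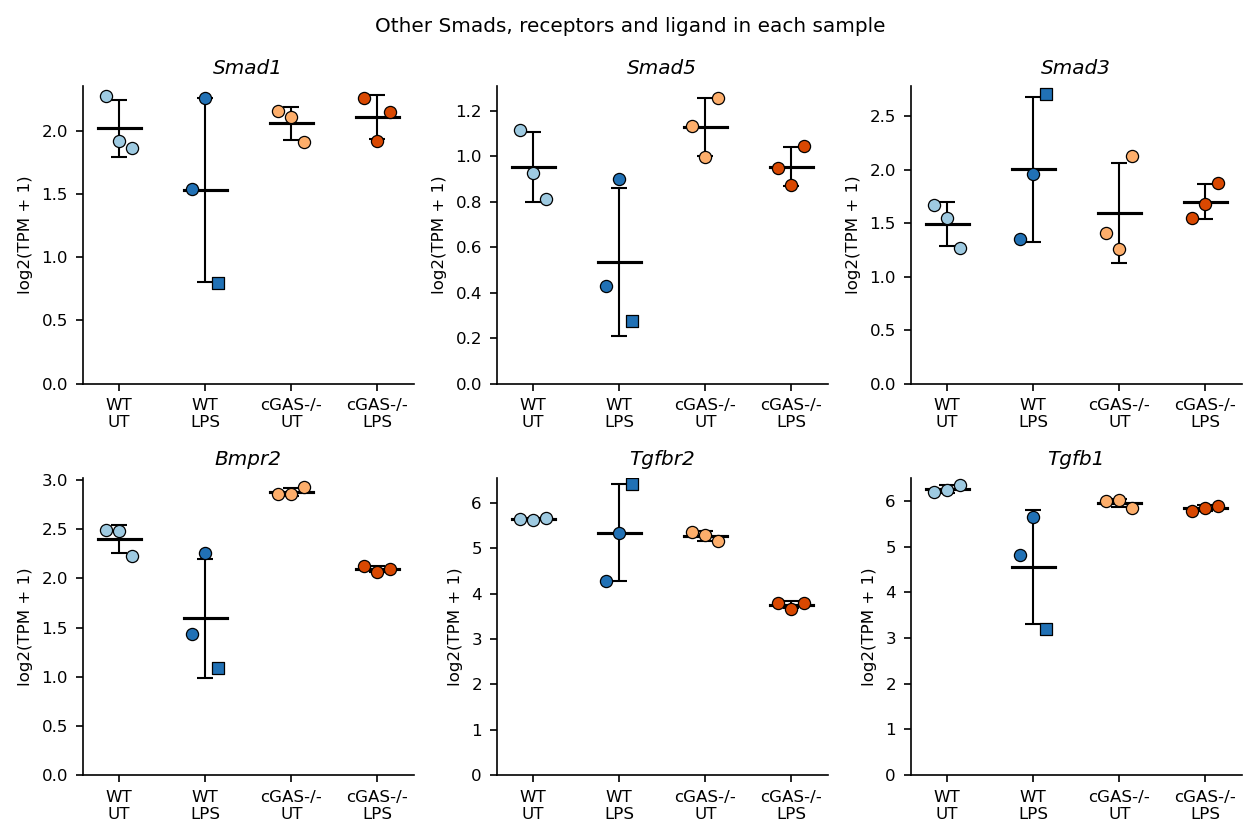
Levels of Smad1, Smad5, Smad3, Bmpr2, Tgfbr2 and Tgfb1 in each sample as log2(TPM + 1), with 1 point a sample, the mean as a line and the SD (n = 3) as bars. The square is WT LPS replicate 3. The WT LPS samples are the most scattered in all 6 panels, and Tgfbr2 is lowest in the 3 cGAS-/- LPS samples.

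Other features of the untreated samples moved with the genotype. Of 26 cell cycle genes tested, 17 were called lower in cGAS-/- UT cells and none higher (limma, adjusted p under 0.05 over 9855 genes). Their summed level was 281 to 297 TPM in WT UT and 195 to 205 TPM in cGAS-/- UT samples. Fibroblast markers, 11 of 12 in the table, summed to 11.6 to 14.9 TPM in WT UT and 3.71 to 5.55 TPM in cGAS-/- UT samples, and the 5 of them tested were all wholly lower, with 0 called. Endothelial markers, 9 of 9 in the table, summed to 5.07 to 5.13 TPM and 3.46 to 4.08 TPM. Emcn was at 0 and Cdh5 at no more than 0.0487 TPM in the cGAS-/- UT samples, whereas Kdr was higher there without overlap, at 0.656 to 1.11 TPM against 0.509 to 0.574 TPM. Of the 3 endothelial markers tested, 1 was wholly higher and 1 wholly lower, and 0 were called. Of 7 macrophage markers tested, 1 was called lower, Mrc1, at 73.4 to 85.2 TPM in WT UT and 23.5 to 25.6 TPM in cGAS-/- UT samples (-1.68, limma adjusted p = 0.0129). B cell markers, 7 of 8 in the table, summed to 108 to 134 TPM and 20.0 to 28.6 TPM, nearly all of it from Igkc and Ighm, while Pax5 did not exceed 0.0221 TPM in UT cells. Of 3 B cell markers tested, 1 was called lower, and of 6 neutrophil markers 2 were. Neutrophil markers, 8 of 9 in the table, summed to 158 to 231 TPM and 67.0 to 142 TPM, and erythroid markers, 6 of 7, to 2.69 to 5.24 TPM and 2.11 to 7.12 TPM. In bulk RNA, a change in the number of cells of a type and a change in the RNA per cell cannot be told apart, and the part of all these markers in the result was not tested.

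LPS-treated cells were compared with a test, since the question that picked the genes concerned untreated cells, although earlier results of the LPS samples were known as well. With LPS, 3 of the 10 genes had an unadjusted p under 0.05 between cGAS-/- and WT cells (limma). The share of all genes at that cut is not given, so nothing is read from this count. At an adjusted p under 0.05, 0 of the 10 genes were called, against 2.6% of the 9855 genes (1.53% higher and 1.07% lower). The high Id levels of the knockout were thus not seen after LPS. For Id1 the log2 difference was 0.02, with a 95% interval from -0.68 to 0.72 (limma adjusted p = 0.978). Id2 had a difference of -0.37, with an interval from -1.40 to 0.66 (limma adjusted p = 0.639). Id3 was higher in the knockout by 0.60, with an interval from 0.01 to 1.18 (limma adjusted p = 0.24). Smad6 differed by -0.18, with an interval from -0.63 to 0.26 (limma adjusted p = 0.589).

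Tgfbr2 and Tgfb1 had the largest differences of the 10 in LPS-treated cells. Tgfbr2 was at 18.3, 39.6 and 84.7 TPM in WT LPS cells and at 12.9, 11.7 and 12.8 TPM in cGAS-/- LPS cells, a log2 difference of -1.60 (standard error 0.42, limma adjusted p = 0.0804). Every knockout sample was below every WT sample, although the SD was 33.9 TPM among the WT samples and 0.712 TPM among the knockout samples. Tgfb1 was at 27.2, 48.9 and 8.17 TPM in WT LPS cells and at 53.6, 56.7 and 58.4 TPM in cGAS-/- LPS cells, a difference of 1.28 (standard error 0.48, limma adjusted p = 0.179), again without overlap. Of all genes tested, 13.8% were wholly above and 4.93% wholly below in this comparison, against 1 and 1 of the 10. Bmpr2 differed by 0.50 (standard error 0.26, limma adjusted p = 0.299) and its samples overlapped. The Smads overlapped too, with differences of 0.58 for Smad1, -0.30 for Smad3 and 0.42 for Smad5 (limma adjusted p from 0.255 to 0.588). The median log2 difference was 0.22 over the 10 genes and 0.27 over all genes.

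Which of these were called changed with the WT LPS samples. Without WT LPS replicate 3, 3 of the 10 genes were called, Id2 lower in the knockout (-1.07, limma adjusted p = 7.6e-04), Id3 higher (0.90, adjusted p = 0.00839) and Tgfbr2 lower (-1.06, adjusted p = 0.0246). The difference of Tgfb1 was then 0.61 (adjusted p = 0.0902), those of Bmpr2, Smad1 and Smad6 were 0.24, 0.21 and -0.03, and those of Id1 and Smad3 turned to -0.30 and 0.05. In that setting 9.88% of all genes were called. Without WT LPS replicate 2, 5 were called, Tgfb1, Bmpr2, Smad1 and Smad5 higher and Tgfbr2 lower, where 33.4% of all genes were called. Without WT LPS replicate 1, only Tgfbr2 was called (-2.13, adjusted p = 0.00425), where 3.23% of all genes were called, and it was the single gene called with quantile normalization as well, where 6.1% were. Tgfbr2 was lower in the knockout in every setting tried, by 0.93 to 2.13 on the log2 scale.

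Within each genotype, LPS-treated cells were set against untreated ones. These comparisons use the untreated samples again, so the values are a description. In cGAS-/- cells, 6 of the 10 genes had every LPS sample below every UT sample and none was wholly above, where 43.5% of all genes were wholly below and 17.2% above. They were Id1 (log2 difference -3.12, standard error 0.32), Id3 (-3.84, standard error 0.27), Id2 (-2.21, standard error 0.47), Tgfbr2 (-1.52, standard error 0.42), Bmpr2 (-0.79, standard error 0.26) and Smad6 (-0.59, standard error 0.2). The mean level of Id1 was 20.7 times, that of Id3 20.1 times and that of Id2 4.76 times as high before LPS as after it.

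In WT cells, Smad6 alone was wholly above, by 1.30 (standard error 0.2), and Tgfb1 alone wholly below, by -1.71 (standard error 0.48), where 5.71% of all genes were wholly above and 34.8% below. The Id genes overlapped, with differences of 0.24 for Id1, 0.15 for Id2 and -0.07 for Id3. Without WT LPS replicate 3 the differences were 0.56 for Id1, 0.85 for Id2 and -0.38 for Id3, each in the same direction as with it, and those of Smad6 and Tgfb1 were 1.14 and -1.03. Over all alternative settings the direction turned in 1 of 19 for Id1, 3 of 19 for Id2 and 5 of 19 for Id3. The median over all genes was -0.55 in WT and -0.22 in cGAS-/- cells. With TMM factors these medians moved to -0.16 and 0.01, and with quantile normalization to -0.04 and -0.05. Smad6 was therefore higher in WT LPS cells against a downward median, while the Id genes were lower in cGAS-/- LPS cells by more than the median under all of these scalings.

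**Figure D3:**
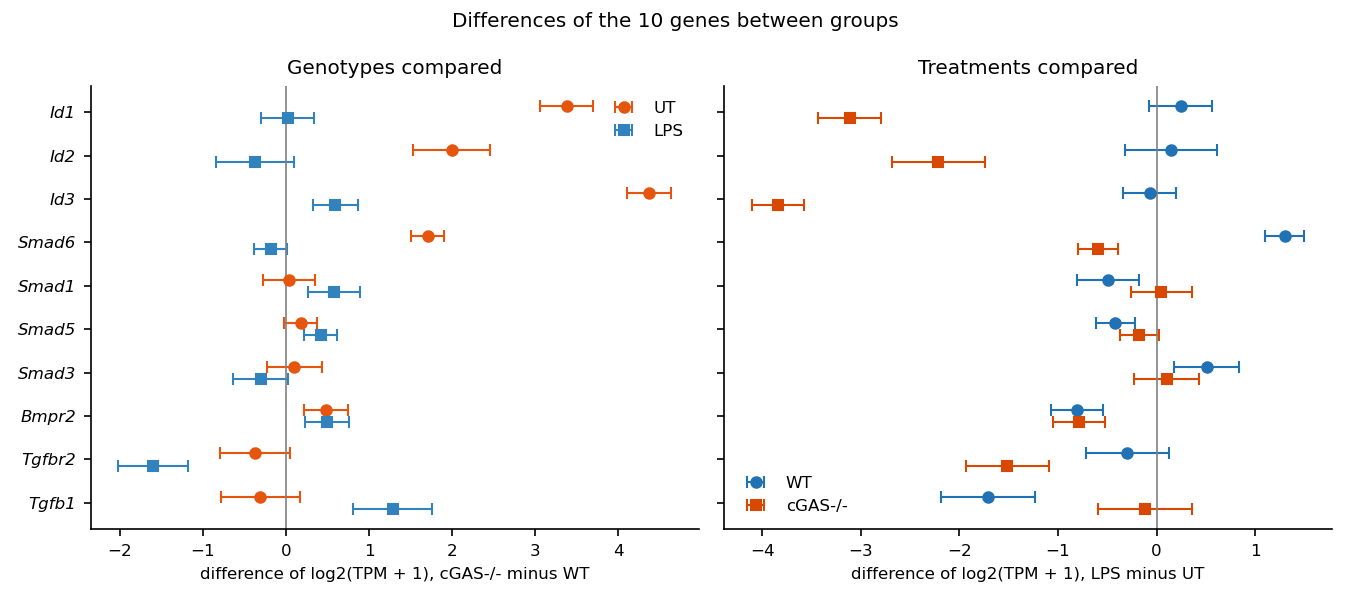
Differences of log2(TPM + 1) between groups for the 10 genes, with standard errors from the fit over all 12 samples. The left panel gives cGAS-/- minus WT in UT (circles) and LPS-treated cells (squares), and the right panel LPS minus UT in WT (circles) and cGAS-/- cells (squares). Id1, Id2, Id3 and Smad6 stand at 3.38, 1.99, 4.37 and 1.71 in UT cells and between -0.37 and 0.60 with LPS.

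The genes whose levels followed Id3 most closely over the 12 samples were found by Pearson's r of log2(TPM + 1) over 9854 other genes. They were the processed pseudogene Psenen-ps (r = 0.977), Id1 (0.934), the sulfotransferase gene Chst3 (0.925), Ralgapa2 (0.924), which encodes part of a Ral GTPase-activating complex, and the pseudogene Gm43712 (0.918). Psenen-ps had a mean of 24.1 TPM in cGAS-/- UT cells and no more than 0.248 TPM in the mean of any other group. As a processed pseudogene it can share reads with its parent gene. By likeness to Id3, Id2 had rank 55, Bmpr2 rank 225 and Smad6 rank 312 (r = 0.771, 0.663 and 0.63). Smad5 had rank 1038 (r = 0.505), and Tgfb1, Smad1, Tgfbr2 and Smad3 had ranks 4929 to 7366, with r from -0.0872 to 0.183. For Smad6 the 5 closest genes were Gm19709, Gm37758, Sec22b, Wdfy1 and Zfp729a, with r from 0.739 to 0.752. The samples share 4 groups, so these values describe the groups as much as the genes.

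Other genes of the pathway were taken from a list of 97, of which 74 were in the table and 28 passed the filter. In untreated cells, 2 were called higher and 2 lower in the knockout (limma, adjusted p under 0.05, at which 1.82% of all genes were called, 0.264% higher and 1.55% lower). With TMM factors 2 were higher and 1 lower, and with a common total 1 and 2. In the fit given first, the 2 higher ones were Tgfb3 and Skil, and the 2 lower ones were Gdf3 and Grem1. The median log2 difference over the 28 genes was 0.11, against -0.03 over all genes. Judged on the 6 untreated samples alone, whose replicates lay closer together than those of WT LPS, 7 were called higher and 4 lower, and 12.4% of all genes were called. Bmp2, Dcn, Itgav, Thbs1, Tgfbr1, Tgfbi and Junb were the 7 added there.

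Among the ligands, the BMP and activin group had 4 genes tested. Bmp2, a classical BMP ligand, was at 20.5, 17.9 and 19.4 TPM in WT UT cells and at 6.46, 7.36 and 4.81 TPM in cGAS-/- UT cells, a log2 difference of -1.51 (standard error 0.35, limma adjusted p = 0.0595). The cells with more Id1 and Id3 thus had less Bmp2, without overlap, although the call was missed. Gdf3, a member of the BMP family that restrains BMP signals, was at 10.98, 10.8 and 9.002 TPM in WT UT cells and at 1.53, 1.58 and 1.48 TPM in cGAS-/- UT cells, a log2 difference of -2.15 (standard error 0.24, limma adjusted p = 6.45e-04). It was lower with LPS as well, at 5.04, 4.10 and 2.03 TPM in WT and 0.40, 0.445 and 0.277 TPM in cGAS-/- cells (-1.72, limma adjusted p = 0.00368). Gdf15 and Inhba were not called in either comparison of genotypes. Of the 25 ligand genes of this group in the table, 18 stayed under 1 TPM in every sample.

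The TGF-beta ligands and their activators had 5 genes tested. Tgfb3, the third TGF-beta ligand, was at 0.763, 1.46 and 1.36 TPM in WT UT cells and at 8.05, 7.81 and 6.43 TPM in cGAS-/- UT cells, a rise of 1.95 (standard error 0.2, limma adjusted p = 3.83e-04). It passed the filter on low values only through the cGAS-/- UT samples, so its calls that use them are not independent of the filter. With no filter the adjusted p was 0.00127 for untreated cells and 0.0132 for the difference of the LPS effects given next. After LPS it was at no more than 0.405 TPM in either genotype. Its fall with LPS was called in both genotypes, although in WT it was -0.35 and not called with quantile normalization (limma adjusted p = 0.299) and the call was also lost with sample weights and from the 6 WT samples alone. It was larger in the knockout, with a difference of the LPS effects of -2.09 (limma interaction term, adjusted p = 0.0048). It was the only one of the 28 with a called interaction, at which 0.974% of all genes were called, 0.203% in its direction. Leaving out WT LPS replicate 3 added Itgb8 (higher) and Dcn (lower) to it, where 5.59% of all genes were called. Itgb8, part of the integrin that frees TGF-beta from its latent form, was called higher in cGAS-/- LPS cells, at 1.99, 2.07 and 2.26 TPM against 0.377, 0.829 and 0.135 TPM in WT (1.13, limma adjusted p = 0.0098). It passed the filter on low values only through the cGAS-/- LPS samples, so its call is not independent of the filter. With no filter the adjusted p was 0.0155. Without WT LPS replicate 3 the difference was 0.97 for Itgb8 and -2.02 for Gdf3, and both were called. The call of Itgb8 was lost whichever of the 3 cGAS-/- LPS samples was left out. It was also lost with sample weights (1.08, limma adjusted p = 0.0709) and with a pseudocount of 0.1 (2.23, adjusted p = 0.132). From the 6 LPS samples alone neither Itgb8 nor Gdf3 was called.

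Of the receptors, Tgfbr1, the type I partner of Tgfbr2, was at 14.98, 13.99 and 12.3 TPM in WT UT cells and at 27.4, 27.9 and 28.3 TPM in cGAS-/- UT cells (0.97, limma adjusted p = 0.248). The samples were far apart, but the gene was not called in the fit of all 12 samples. It was called on the 6 untreated samples alone. Acvr1, Acvr2a and Eng were not called in either genotype comparison.

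Among the inhibitors, Skil, a nuclear repressor of Smads that TGF-beta induces, was at 4.39, 3.68 and 3.41 TPM in WT UT cells and at 12.6, 12.9 and 15.4 TPM in cGAS-/- UT cells (1.60, standard error 0.33, limma adjusted p = 0.0338). Grem1, a secreted trap for BMPs, was at 3.94, 3.87 and 4.45 TPM and at 0.825, 0.179 and 0.0789 TPM (-1.94, standard error 0.43, limma adjusted p = 0.0494). The calls of both Skil and Grem1 were lost when any one of the 6 untreated samples was left out, and 2 of the 4 calls then remained, Tgfb3 and Gdf3. With a pseudocount of 0.1 the call of Tgfb3 was lost too (2.58, limma adjusted p = 0.0921), and that of Gdf3 was kept. Grem1 is made chiefly by stromal cells, and the fibroblast markers above moved the same way, whose part was not tested. Of the other inhibitors, Dcn was at 0.951 to 1.43 TPM in WT UT and at 0 to 0.0575 TPM in cGAS-/- UT cells (-1.07, standard error 0.46, limma adjusted p = 0.609), and Ski and Fkbp1a differed by 0.11 and 0.06 and were not called.

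The E proteins, which the Id proteins bind, did not differ by a call. Tcf3 had mean levels of 1.94 TPM in WT UT and 1.84 TPM in cGAS-/- UT cells, a log2 difference of -0.06 (standard error 0.23), and Tcf12 had 1.47 and 1.85 TPM, a difference of 0.21 (standard error 0.24). Of the 11 target genes in the table outside the 10, 5 passed the filter, and none of these was called between genotypes in either treatment. Ccn2, and Dcn among the inhibitors, were called lower in cGAS-/- LPS cells without WT LPS replicate 3 and with quantile normalization. In these settings 9.88% and 6.1% of all genes were called. The BMP targets Atoh8, Hey1, Msx1 and Msx2 stayed at or below 0.327 TPM in all 12 samples, those of cGAS-/- UT included, where Id1 and Smad6 were higher, and Smad9, another BMP carrier and target, stayed at or below 0.183 TPM. The TGF-beta targets Ccn2 and Cdkn2b differed by -0.71 and 0.07 in untreated cells. Tgfbi was at 16.8 to 18.2 TPM in WT UT and at 36.9 to 37.7 TPM in cGAS-/- UT cells (1.06, standard error 0.48, limma adjusted p = 0.665). Junb was at 64.1 to 72.9 TPM and at 81.8 to 92.5 TPM (0.34, standard error 0.46).

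**Figure D4:**
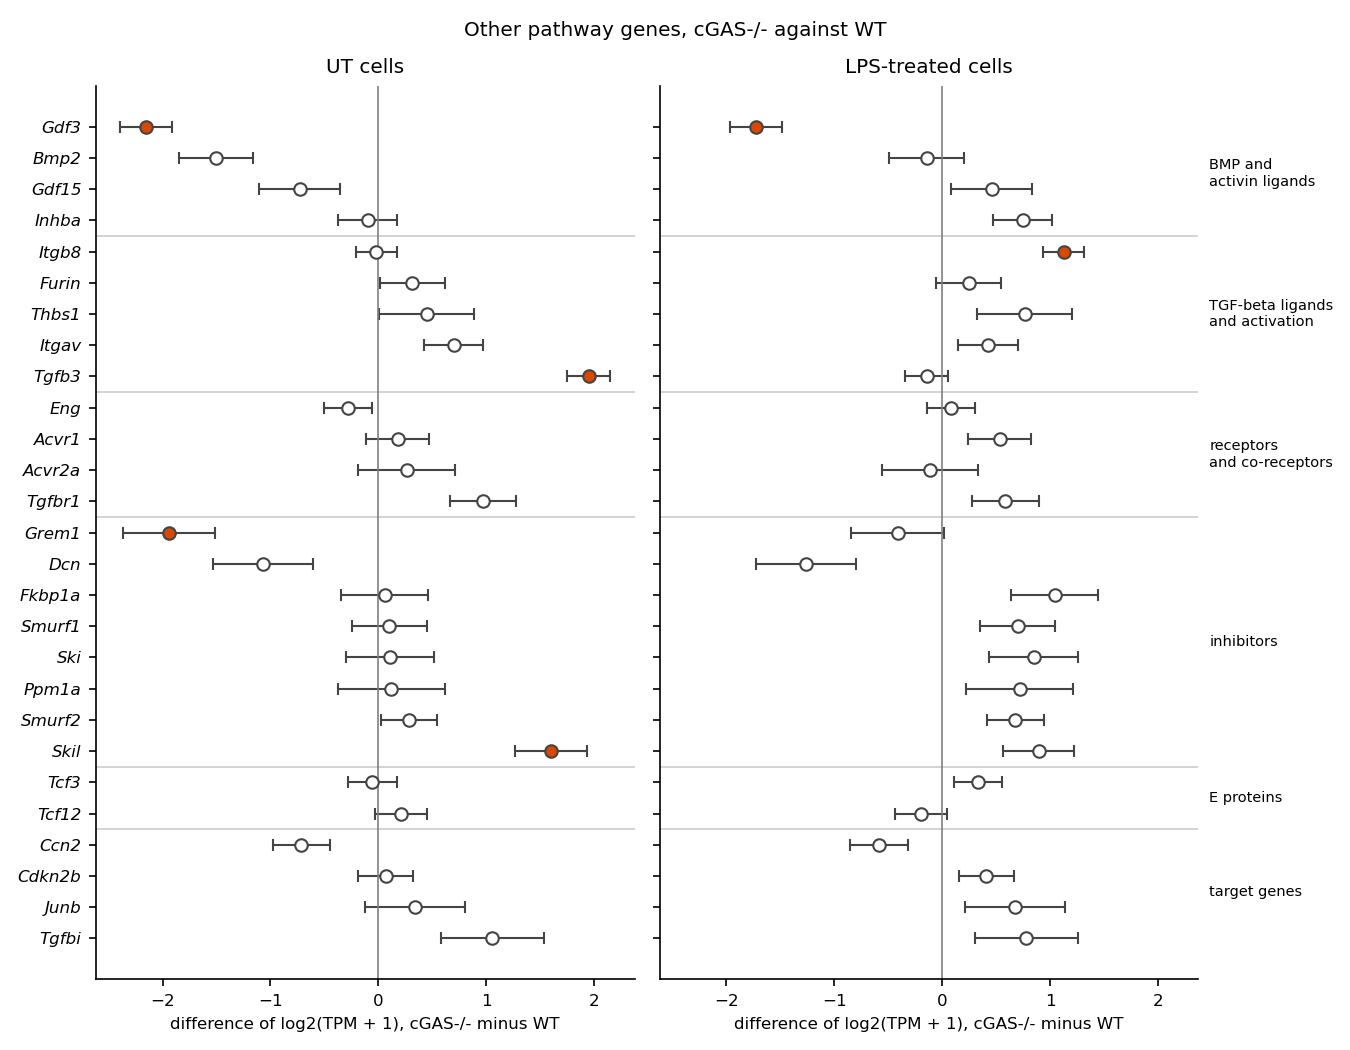
Differences of log2(TPM + 1), cGAS-/- minus WT, for the other pathway genes tested, 1 of them left out, with standard errors from the fit over all 12 samples, in UT (left) and LPS-treated cells (right). Filled points were called at an adjusted p under 0.05. The filled points on the left are Gdf3 and Grem1 below 0 and Tgfb3 and Skil above, and on the right Gdf3 below and Itgb8 above.

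In the fit of all 12 samples, more of these genes were called with LPS than between genotypes. With the groups compared fitted alone, 11 were called between untreated genotypes, 3 with LPS in WT and 21 with LPS in cGAS-/- cells. In WT cells 3 of the 28 rose and 10 fell (limma, adjusted p under 0.05, at which 30.8% of all genes were called, 4.86% higher and 25.9% lower), and in cGAS-/- cells 4 rose and 5 fell (15.8% of all genes, 5.56% higher and 10.2% lower). With TMM factors 6 rose and 5 fell in WT cells (22.0% of all genes called), and with quantile normalization 6 rose and 4 fell (23.9%), so the larger number of falls there depends on the scaling. Thbs1, whose product activates latent TGF-beta, rose by 2.87 in WT and by 3.19 in cGAS-/- cells, to 197 ± 9.2 TPM in the knockout. Tgfbi rose by 2.04 and 1.77, and its call in cGAS-/- cells was lost when any one of the 6 cGAS-/- samples was left out (limma adjusted p from 0.0809 to 0.0852). That call was also lost with no filter (adjusted p = 0.0676) and with a common total (0.0799). Dcn, a matrix proteoglycan that binds TGF-beta and also one of the fibroblast markers, rose by 1.65 in WT. Its call was lost when any one of the 3 WT UT samples or WT LPS replicate 1 was left out, and with no filter (limma adjusted p = 0.0602). Inhba, which encodes a subunit of activin, and Itgb8 rose by 1.38 and 1.61 in cGAS-/- cells. Itgb8 passed the filter only through these LPS samples, and with no filter its adjusted p was 3.06e-04. In WT the differences of Inhba and Itgb8 were 0.54 and 0.47 and were not called (limma adjusted p = 0.146 and 0.0814), but both were called higher without WT LPS replicate 3, with TMM factors and with quantile normalization. Itgb8 was wholly higher with LPS in WT cells too.

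The largest falls among the called genes with LPS in WT were those of Bmp2 (-3.71), Tgfbr1 (-2.25), Ski (-1.75), Gdf15 (-1.39) and Gdf3 (-1.31). In cGAS-/- cells they were those of Tgfb3 (-2.98), Tgfbr1 (-2.64), Bmp2 (-2.35), Itgav (-1.40), a chain of the integrins that free TGF-beta, and Gdf3 (-0.88). Bmp2 was at 0.231, 1.98 and 0 TPM in WT LPS and at 0.255, 0.377 and 0.582 TPM in cGAS-/- LPS cells. Id1, Id3, Bmp2, Tgfb3 and Tgfbr1 were thus all low in LPS-treated cells of both genotypes. Their group means were at most 2.34 TPM in WT LPS and 3.64 TPM in cGAS-/- LPS cells, both for Tgfbr1. The 5 genes named for WT were called without WT LPS replicate 3 as well, Bmp2 at -3.40, Tgfbr1 at -1.86, Ski at -1.20, Gdf15 at -0.92 and Gdf3 at -1.02. The call of Gdf15 in WT was lost with TMM factors (-1.03, limma adjusted p = 0.0718), quantile normalization (-0.83, adjusted p = 0.0682), sample weights and without WT UT replicate 2. That of Gdf3 in cGAS-/- cells was lost whichever of the 6 samples was left out (limma adjusted p from 0.0755 to 0.107). It was also lost with no filter (adjusted p = 0.0617), with a common total (0.0618) and with a pseudocount of 5, where the difference was -0.28. With WT LPS replicate 3 left out, 7 of the 28 rose and 12 fell in WT cells, where 39.5% of all genes were called, and with the groups compared fitted alone 1 rose and 2 fell, where 7.53% were called. The rises in WT without that sample were 3.36 for Thbs1, 2.73 for Tgfbi and 2.36 for Dcn.

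Some identities limit the values. Smad3, Smad6 and Tgfbr2 lie on chromosome 9 with Cgas, at 14.7, 14.4 and 37.6 Mb from it, and Smad3 and Smad6 are separated by 194.9 kb, so differences carried with the knockout allele cannot be told apart from the effect of the deletion for these genes. Antisense transcripts overlap Id1, Id2, Id3, Bmpr2, Tgfbr2 and Smad1 in the annotation. The libraries keep strand, but the strand setting of the quantification is not given in the sources used here. Of the 2 antisense genes at Id2, Gm36287 did not exceed 0.407 TPM in any sample, and Gm59395, which shares more sequence with Id2, was not analysed here. Smad2, Smad4, Smad7, Bmpr1a and Bmp4, among others, had no values in the table used here and were not analysed. The receptors, carriers, inhibitors and targets described above are therefore only a part of the pathway.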

How the data were processed

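RNA of 12 BMDM samples, 3 in each of the 4 groups, was sequenced on paired ends with a stranded kit. Per the submitters' notes and the methods, reads were trimmed with fastp, mapped to GRCm39 with STAR and quantified with Kallisto. The values deposited by the authors were read as Kallisto's TPM, averaged within each symbol, a unit inferred from the values, and the read depth is unknown. An average over transcripts can hide a change in a single transcript. Table columns were matched to samples by title.

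Genes with at least 1 TPM in at least 3 samples (9855 of 38739 symbols) were fitted as log2(TPM + 1) with limma 3.58.1 in R 4.3.3, with a mean per group over all 12 samples and variances that follow a trend. Benjamini-Hochberg adjusted p-values covered all 9855 genes and calls were made under 0.05. The fit was checked on simulated data. Same-numbered samples did not deviate together, so no block was used. The 10 genes, the pathway and marker lists and the tests were chosen with earlier results of these data known. Of the 10 genes, differences that use the UT samples were therefore given without a test. The text names these genes, other pathway genes called between genotypes, the 5 highest by mean TPM, the 5 largest rises and falls with LPS, the 5 genes most like Id3 and Smad6, and Cgas. Further genes named (Bmp2, Tgfbr1, Itgav, Dcn and others in their role group) were chosen after their values were seen. A pathway gene and a promoter match are not reported here. Transcripts were compared by blastn 2.17.0. Alternatives were pseudocounts of 0.1 and 5, no filter, a filter of 5 TPM, TMM factors, quantile normalization, a common total, a replicate block, no trend, sample weights, protein-coding genes only, the 6 samples compared alone, a log2 fold change beyond 2 and each sample left out. The same filter, applied once the samples had been scaled to equal sums, was added after the data were seen.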

Additional observations from a re-analysis of the deposited data

Results flagged for a closer look

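The LPS effect on Tgfb3 differed between genotypes. The fall was -0.89 on the log2 scale in WT and -2.98 in cGAS-/- cells, a difference of -2.09 by limma's interaction term (adjusted p = 0.0048), and it stayed between -1.94 and -2.21 when any one of the 12 samples was left out. With a pseudocount of 0.1 it was -3.16 and no longer called (adjusted p = 0.238). Both genotypes ended at no more than 0.405 TPM, and the knockout had the higher untreated level. Tgfb3 passed the filter on low values only through the cGAS-/- UT samples, which also enter the difference, so the call is not independent of the filter. With no filter the adjusted p was 0.0132.

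Smad6 moved in opposite directions, with every LPS sample above every UT sample in WT and below in cGAS-/- cells. The log2 changes were 1.30 and -0.59, a difference of -1.89 that was not tested, since the untreated levels had been known when the gene was chosen. Without WT LPS replicate 3 the change in WT was 1.14.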

How the results depend on the processing

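Calls were made by limma at an adjusted p under 0.05. Of the 10 genes with LPS, 0 were called, and 1 with quantile normalization. Of the 28 other pathway genes, 4 were called between genotypes in UT cells. The count was 2 with a pseudocount of 0.1, Gdf3 and Dcn, both lower, where 0.771% of all genes were called. The call of Tgfb3 was lost there (2.58, limma adjusted p = 0.0921). Without a filter and with the replicate block the count was 2 each, Tgfb3 and Gdf3. It was 14 with sample weights (14.3% of all genes), 11 from the 6 samples compared (12.4%) and 1 with a log2 fold change beyond 2 as well. In LPS-treated cells 2 were called, and 1 with a pseudocount of 0.1 and 1 with a filter of 5 TPM. With quantile normalization 4 were called (1 higher, 3 lower), where 6.1% of all genes were. Without WT LPS replicate 3 the count was 4 as well, where 9.88% of all genes were called. Itgb8 was higher there and Gdf3, Dcn and Ccn2 lower. With sample weights the count was 2, Gdf3 and Dcn. From the 6 samples compared 0 were called, where 8 of all 9855 genes were. Beyond the fold threshold the count was 0. At an unadjusted p under 0.05, 7 of the 28 passed in LPS-treated cells in the fit of all samples. The share of all genes at that cut is not given, so nothing is read from this count. For LPS in WT cells 13 were called, 3 from the 6 samples compared and 4 beyond the fold threshold. For LPS in cGAS-/- cells 9 were called (15.8% of all genes), 21 with sample weights (55.0%), 21 from the 6 samples compared (51.0%) and 4 beyond the fold threshold. For the difference of the LPS effects 1 was called, 0 with a pseudocount of 0.1, 3 with a pseudocount of 5, 2 with TMM factors and 2 with protein-coding genes only.

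With 1 sample left out, the count of the 10 genes with LPS was 0 to 5. That of the other genes was 2 in UT cells whichever sample was left out, 1 to 13 with LPS, 8 to 21 for LPS in WT cells, 7 for LPS in cGAS-/- cells and 1 to 6 for the difference. The highest counts were those without WT LPS replicate 2, where 33.4% of all genes were called with LPS, 53.8% for LPS in WT cells and 16.0% for the difference.

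Of the log2 differences with LPS, that of Id1 turned from 0.02 to -0.0094 with a pseudocount of 5, to -0.11 with quantile normalization and to -0.41 with sample weights, and ranged from -0.30 to 0.39 with 1 sample left out. That of Id2 turned from -0.37 to 0.039 without WT LPS replicate 2, in a range from -1.07. That of Smad3 turned from -0.30 to 0.10 with sample weights and ranged from -0.63 to 0.046 with 1 sample left out. The cause was not tested.

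Same-numbered samples did not deviate together (correlations of -0.035 to 0.0469 over 18 pairs, against -0.0686 to 0.058 over 36 others), so the replicate block shares a number only. With the block, 2 other pathway genes instead of 4 were called in UT cells, and the remaining counts were unchanged at 0, 2, 13, 9 and 1. With 3 samples a group and no read counts, small differences of low genes such as Smad5 and Smad6 could not be resolved.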

Other observations

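Hamp, a target of BMP signals in the liver, was at 7.33 TPM in WT LPS replicate 1, at 0.812 TPM in cGAS-/- LPS replicate 1 and at 0 in the other 10 samples. It did not pass the filter on low values and was not tested.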
